A study of Canis lupus familiaris with 10 samples.

Results

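C-type lectin receptors of myeloid cells were examined in cutaneous histiocytoma of the dog (CCH), a benign tumor that derives from Langerhans cells of the skin and usually regresses as lymphocytes enter it. The receptors were chosen by name, as 10 genes known for this role, and their rows were found by an exact match of the gene symbol. Of the 10 listed genes, 6 were analyzed, namely CD209, MRC1, CLEC7A, CLEC12A, CLEC4G and CLEC5A, among 23266 gene symbols of the table. CD207, LY75, CLEC9A and CLEC10A were not analysed here. All 6 passed the filter on low values (at least 10 in at least 5 libraries), which left 12397 genes for testing.

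The data were 10 QuantSeq 3′ libraries from formalin-fixed, paraffin-embedded (FFPE) tumors of pet dogs, with 5 early CCH (group 1 of the staging of Cockerell and Slauson) and 5 late CCH (group 3, labeled as lymphocyte enriched). No treatment or genetic change is given for any dog, and no normal skin was compared. The ages given were 0.5 to 5 years for 4 dogs with early CCH and 1.5 to 9 years for the 5 dogs with late CCH. The values are normalized read counts, that is, reads divided by a size factor of the library. Because the method makes a fragment near the end of each transcript, these values do not grow with gene length. They still depend on how well the transcript ends are annotated and on multi-mapped reads, which can differ between genes. Levels of different genes are set side by side below on this scale with that limit.

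Each library held between 2973125 and 4439709 reads assigned to genes, and 3 reads, which a count of 0 still allows, corresponded to 2.36 to 3.22 normalized read counts. The limits cover counting error only. The share of RNA fragments longer than 200 nucleotides (DV200) was given in the labels, with 68.5% ± 2.46 for early and 73.2% ± 2.09 for late CCH (SD, n = 5 each). The study lists the stages in different extraction batches and index sets, so stage and batch cannot be told apart in any comparison here. In whole tissue, fewer cells of a type and less RNA per cell cannot be told apart either. Early library 2 stood apart from the other early libraries in CD209, and values without it are given where it matters.

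C-type lectin receptors carry a domain related to the one with which animal lectins bind sugars in the presence of calcium, and myeloid cells use them to recognize and take up microbes and altered self material. Some are mainly endocytic, such as MRC1. Some signal through the kinase SYK and the adaptor CARD9, either directly like CLEC7A or through a partner adaptor such as TYROBP (DAP12) in the case of CLEC5A. Others, such as CLEC12A, recruit the phosphatases PTPN6 and PTPN11 and dampen activation. In skin, Langerhans cells are classically marked by the lectin CD207, whereas CD209 and MRC1 mark dermal macrophages and dendritic cells.

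Levels between the stages were compared with limma on log2(value + 1), as log2 fold change (log2FC) of late minus early CCH. A gene was called at a Benjamini-Yekutieli (BY) adjusted p of at most 0.05 with a log2FC of at least 1 in size. None of the 6 receptors was called (0 of 6), where 2.17% of all tested genes were. At an unadjusted p of at most 0.05, 2 of the 6 passed, MRC1 and CLEC5A, both lower in late CCH, against 30.9% of all tested genes. With the less strict Benjamini-Hochberg (BH) adjustment, 1 of 6 was called, CLEC5A, against 9.04% of all tested genes. Late and early values did not overlap for 1 of 6, again CLEC5A, against 12% of all tested genes. These shares of the receptors rest on single genes and were read as counts only. The median log2FC of the 6 receptors was -0.30, and that of all tested genes was -0.004.

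**Figure D1:**
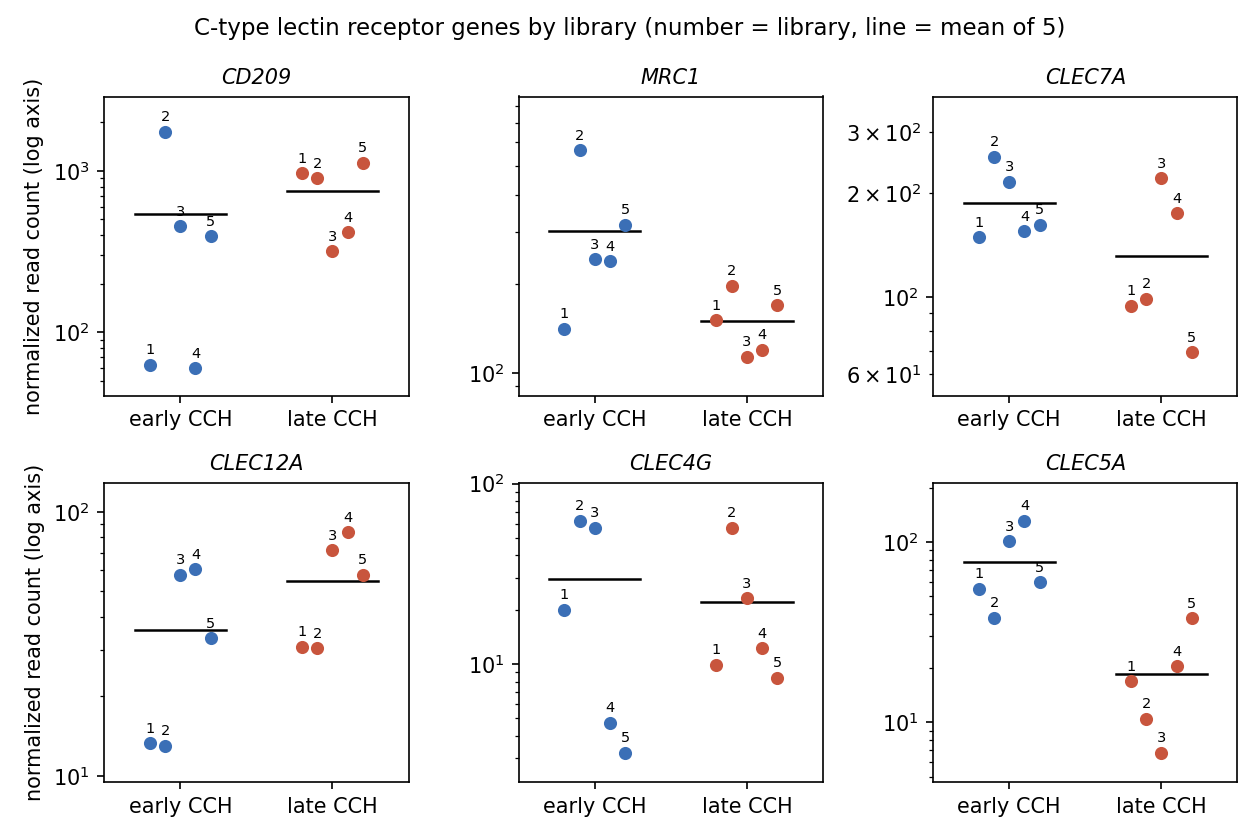
Normalized read counts (log axis, with its own range in each panel) of the 6 receptor genes, with 1 numbered point per library and a line at the mean of the 5 libraries of a stage. CLEC5A separates the stages, with late values from 6.78 to 37.8 and early values from 38.1 to 132, while early library 2 stands above the other early libraries in CD209.

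CLEC5A, an activating receptor of monocytes, macrophages and neutrophils that signals through TYROBP, had the largest difference. The early libraries 1 to 5 held 55.2, 38.1, 101, 132 and 60.1 normalized read counts, and the late libraries 16.9, 10.5, 6.78, 20.5 and 37.8. All 5 late values lay below all 5 early values, but the highest late library (36 reads) and the lowest early library (41 reads) lay within counting error of each other. The mean was 77.3 ± 38.2 in early and 18.5 ± 12 in late CCH (SD, n = 5 each). The log2FC was -2.08 ± 0.46 (SE), with a 95% interval from -3.08 to -1.09. Its BY-adjusted p was 0.113 in limma and missed the threshold, and its BH-adjusted p was 0.0113. CLEC5A was called with BH in all 10 fits that left out 1 library, with adjusted p-values in limma from 0.00879 to 0.0297. DESeq2 on the recovered reads gave a BY-adjusted p of 0.0032 and thus a call, and edgeR's quasi-likelihood test gave 0.154.

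Of the monocyte and neutrophil markers, 6 were tested, and none was called with BY or BH in limma. Their log2FC values ranged from -1.25 (S100A9) to 1.47 (CSF3R) with a median of -0.83, and 5 of the 6 were below 0. Their summed level was 8326, 10150, 412, 3509 and 870 in the early libraries and 711, 9390, 204, 1047 and 1796 in the late ones. Where it was highest, S100A8, S100A9 and S100A12 made up most of it (3970, 1883 and 3450 in early library 2). The sum thus mainly follows these genes and not the whole list. Early library 2, the highest in this sum, was the lowest early library in CLEC5A. Late library 3 was the lowest late library in both. MPO and CD177, markers of neutrophil granules and neutrophils, were at or near 0. The part of these cells in the CLEC5A values was not tested. Relative to the mean log2 level of the 8 pan-myeloid markers, which was 9.44 in early and 9.45 in late CCH, CLEC5A lay between -4.54 and -2.24 in early and between -6.33 and -4.37 in late libraries. The mean difference of this relative level was -2.09, close to that of the level itself, and the ranges overlapped, since early library 2 lay below late library 5. The near equal marker means hide a mixed set. Of the 8 markers, 2 had a log2FC above 0, with CYBB the highest (2.38), and the median was -0.31. TYROBP, the partner of CLEC5A, is among them (-0.82).

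**Figure D2:**
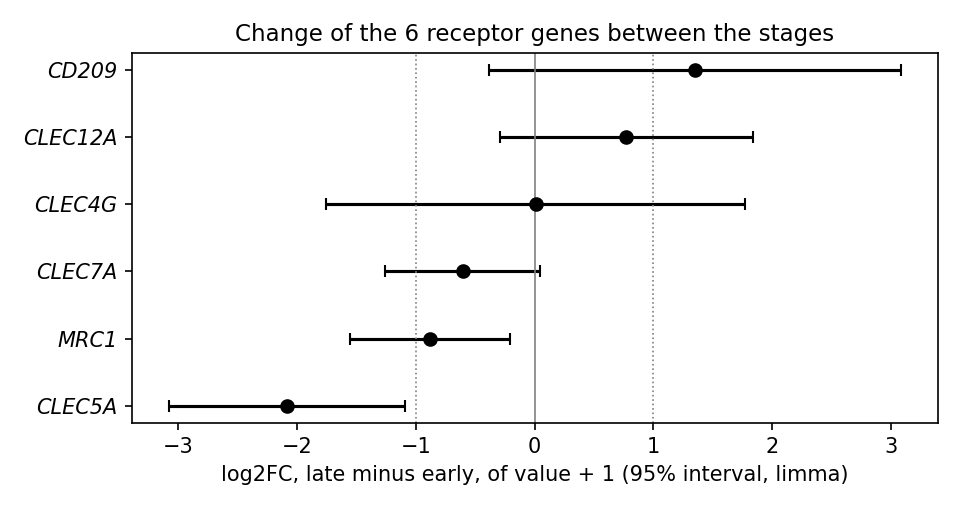
The log2FC (late minus early, of value + 1) of each of the 6 receptor genes, with points at the limma estimate, bars for its 95% interval and dotted lines at a log2FC of -1 and 1. The intervals of CLEC5A (-3.08 to -1.09) and MRC1 (-1.55 to -0.21) lie below 0, and the other 4 span it.

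MRC1 is the mannose receptor CD206, an endocytic receptor of macrophages and dendritic cells. The early libraries held 141, 566, 242, 238 and 317 normalized read counts, and the late libraries 150, 197, 113, 120 and 169. Late values were the tighter group, and they overlapped the early ones only through early library 1. The mean was 301 ± 161 in early and 150 ± 34.7 in late CCH (SD, n = 5 each). The log2FC was -0.88 ± 0.31 (SE, 95% interval -1.55 to -0.21), with adjusted p-values in limma of 0.729 (BY) and 0.0729 (BH). The log2FC moved to -0.61 without early library 2 and to -1.11 without early library 1, there with a BH-adjusted p of 0.0259 in limma, the only one of the 10 such fits in which MRC1 was called with BH. By the order of genes in the RefSeq annotation of the dog assembly UU_Cfam_GSD_1.0, MRC1 neighbors TMEM236, which was singled out after its values were seen. TMEM236 held 57.1, 80.9, 300.3, 256 and 110 normalized read counts in early and 10.9, 7.61, 20.3, 18.4 and 16.8 in late libraries, and it fell with a log2FC of -3.14 ± 0.46 (BY-adjusted p = 0.0211, limma). Its call was lost without early library 5 or late library 1, 2, 4 or 5, with BY-adjusted p-values in limma up to 0.0688. Both genes had lower means in late CCH, but early library 2, the highest for MRC1, was the second lowest early library for TMEM236.

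CD209, also known as DC-SIGN, binds mannose- and fucose-rich glycans on dendritic cells and macrophages, and it had the highest level of the 6 receptors in 8 of 10 libraries. The early libraries held 62.8, 1744, 454, 59.9 and 395 normalized read counts, and the late libraries 968, 901, 319, 416 and 1123. The early tumors thus spanned 29.1-fold between the lowest and the highest library, and the late tumors 3.52-fold. On the log2 scale the SD of CD209 was 2.07 in early CCH, at percentile 98.7 of the SDs of all tested genes, and 0.81 in late CCH, at percentile 84.2. The mean was 543 ± 696 in early and 745 ± 356 in late CCH (SD, n = 5 each), so that the SD of the early group exceeded its mean. The log2FC was 1.35 ± 0.80 (SE), with a 95% interval from -0.39 to 3.08 and adjusted p-values in limma of 1 (BY) and 0.277 (BH). Without early library 2 the log2FC was 2.03, with adjusted p-values in limma of 0.533 (BY) and 0.0534 (BH), and the fold of the means was 3.07 in place of 1.37. The count models, which weigh the high library more, gave log2FC values of 0.46 (edgeR) and 0.45 (DESeq2).

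CD209 was read beside the macrophage markers. Of the 13 macrophage markers, 12 were tested, and 1 was called with BY in limma (STAB1, an endocytic receptor of tissue macrophages, with a log2FC of 2.72 ± 0.46) and 4 with BH, all higher in late CCH. STAB1 was called only without early library 2 or 3 among the fits that left out 1 library, with BY-adjusted p-values in limma up to 0.141. The lowest log2FC of the list was -0.13, for FCGR1A. Their summed normalized read counts were 1745, 9968, 3412, 1137 and 4103 in the early libraries and 10976, 5800, 6407, 8307 and 10013 in the late ones. C1QA, C1QB and C1QC made up most of this sum in every late library (3302, 2867 and 2346 in late library 1). In early libraries 1 and 4 they made up a smaller part. Their log2FC values were 1.46, 2.24 and 1.58, so the sum mainly follows these genes. Early libraries 1 and 4, lowest in CD209, were also the lowest in this sum, and early library 2 was the highest early library in both. The late libraries highest in this sum were also the highest late ones in CD209, but the order of the others differed. Late library 2 had the lowest late sum (5800) with 901 normalized read counts of CD209. Late library 4 had a higher sum (8307) with only 416 of CD209. The part of macrophage content in the CD209 values was not tested.

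**Figure D3:**
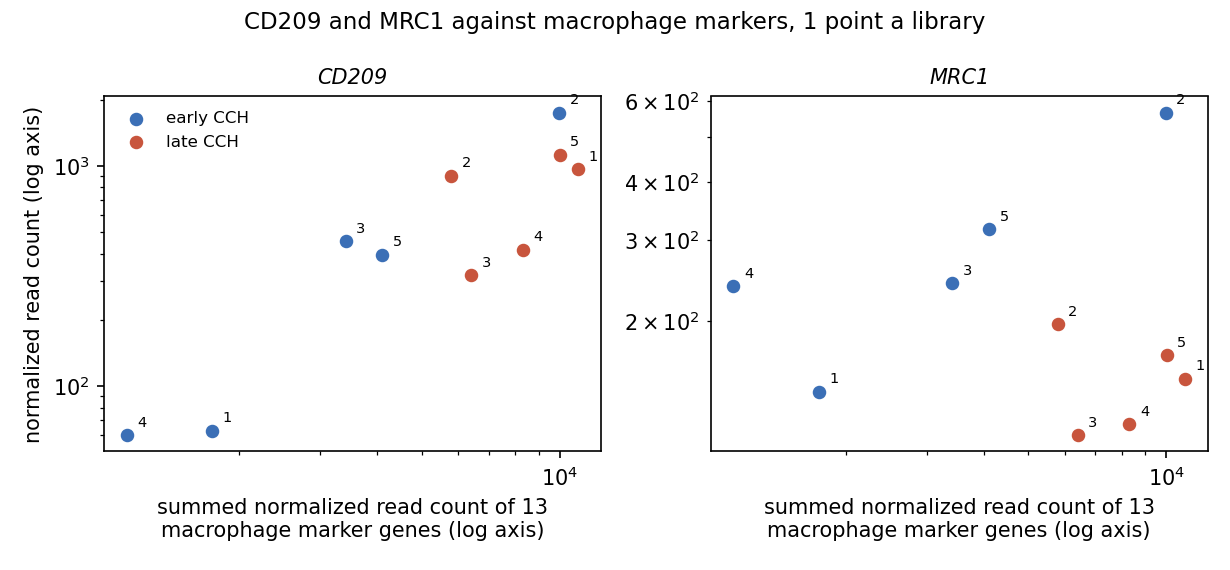
Normalized read counts of CD209 (left) and MRC1 (right) against the summed normalized read count of 13 macrophage marker genes, all on log axes, with 1 numbered point per library. The CD209 points of both stages lie along 1 band, while the late MRC1 points, from 113 to 197, lie at high marker sums of 5800 to 10976 but below most early points. C1QA, C1QB and C1QC make up most of the marker sum in the late libraries.

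CD209 and MRC1 differed once they were set against these markers, a description chosen after the values were seen and given with no test. The mean log2 level of the 12 macrophage markers was 6.92 in early and 8.19 in late CCH. CD209 lay 1.11 above it in early and 1.19 above it in late CCH on average, and the libraries of the stages overlapped. MRC1, which is not in the marker list, lay between 0.66 and 1.96 above the marker mean in every early library and between 1.31 and 0.47 below it in every late library, a mean difference of -2.15 on the log2 scale. Of all tested genes, 9.82% had no overlap between the stages on this relative scale, 1188 with late below early and 30 with late above. The marker mean itself was 1.27 higher in late CCH, so every gene is lowered by that amount on this scale. As normalized read counts per 1000 of the marker sum, MRC1 ranged from 56.7 to 209 in early and from 13.7 to 34.0 in late CCH. CD209 ranged from 36.0 to 175 in early and from 49.7 to 155 in late CCH. CLEC5A ranged from 3.83 to 116 in early and from 1.06 to 3.77 in late CCH on this scale. Its late values thus lay below the early ones there, by a narrow gap, but overlapped them on the relative log2 scale. The marker sum, mostly C1QA, C1QB and C1QC in late CCH, was higher in late than in most early libraries, which lowers late values of any gene. No share of all tested genes without overlap was computed per 1000 of the marker sum. The mean differences on the relative log2 scale were -3.35 for CLEC5A, -1.87 for CLEC7A, -1.26 for CLEC4G and -0.50 for CLEC12A, all with overlap of the stages.

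The ratio of CD209 to MRC1 was 0.446, 3.08, 1.88, 0.252 and 1.25 in the early libraries and 6.44, 4.57, 2.81, 3.48 and 6.65 in the late ones. MRC1 exceeded CD209 in early libraries 1 and 4 only, and the lowest late ratio lay below the highest early one. Within stages the pair varied together. After removal of the stage means, Pearson-log r was 0.867 and Spearman's rho 0.721 over the 10 libraries, and r was 0.632 without early libraries 1 and 2. Between the other pairs of receptors r ranged from -0.57 (CLEC7A and CLEC5A) to 0.53 (CLEC12A and CLEC5A). These coefficients are descriptions and share the size factor of each library.

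As a share of the summed normalized read counts of the 6 receptors, CD209 took 9.21% to 65.1% in early CCH (median 40.3%) and 42.2% to 76.6% in late CCH (median 69.6%). MRC1 took 21.1% to 36.6% in early CCH and 11.5% to 15.2% in late CCH. These ranges of the share did not overlap, whereas the normalized read counts of MRC1 did. A share also depends on the other receptors, mainly on CD209, and no such share was computed for all genes. CLEC5A took 1.42% to 20.2% in early and 0.808% to 2.58% in late CCH. The sum itself was 442, 2678, 1128, 650 and 970 in the early and 1270, 1295, 754, 827 and 1465 in the late libraries. CD209 led in all 5 late libraries but in only 3 of 5 early ones, where CLEC7A led in early library 1 and MRC1 in early library 4.

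**Figure D4:**
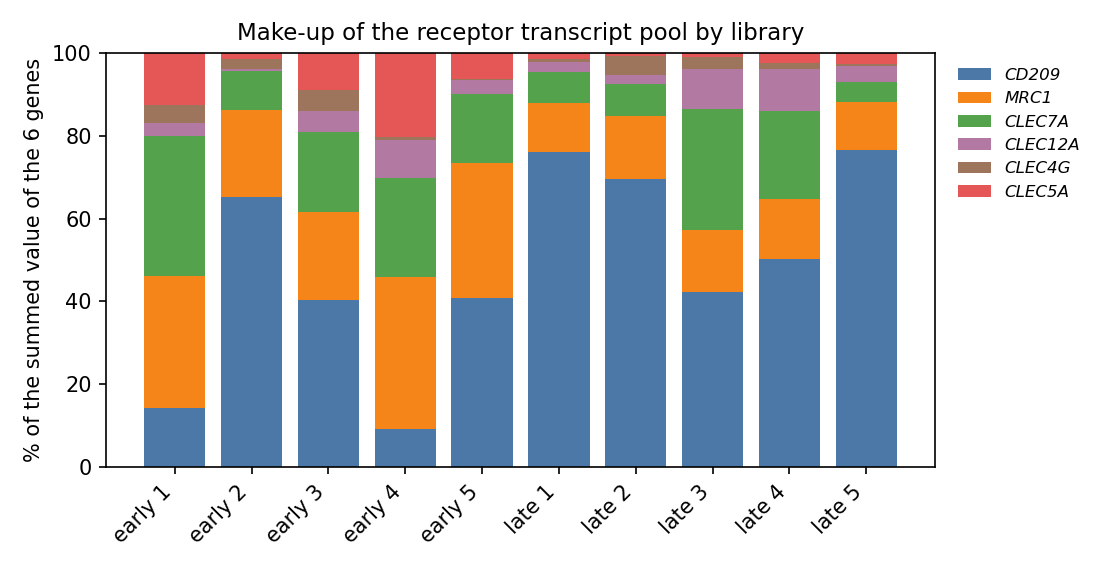
Stacked bars of the share (%) that each of the 6 receptor genes took of their summed normalized read count, 1 bar per library. MRC1 (orange) takes 21.1% to 36.6% in the early libraries and 11.5% to 15.2% in the late ones, and CD209 (blue) takes the largest share in each late library. Each share depends on the other genes too, and the read counts of MRC1 overlapped between the stages.

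CLEC7A is Dectin-1, a receptor for fungal β-glucan that signals through SYK. The early libraries held 149, 255, 216, 155 and 162 normalized read counts, and the late libraries 94.5, 98.9, 221, 175 and 69.2. Late libraries 1, 2 and 5 lay below every early library, while late libraries 3 and 4 lay within the early range. The mean was 188 ± 46.1 in early and 132 ± 63.6 in late CCH (SD, n = 5 each), with a log2FC of -0.61 ± 0.30 (SE, 95% interval -1.26 to 0.05). The adjusted p-values in limma were 1 (BY) and 0.195 (BH). Of the 6 receptors, CLEC7A had the smallest SD among the early tumors in relation to its mean.

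CLEC12A, an inhibitory receptor of granulocytes, monocytes and some dendritic cells, was low. It held 13.3, 13, 57.9, 60.6 and 33.3 normalized read counts in the early and 30.8, 30.4, 71.7, 83.8 and 57.7 in the late libraries. Values of both stages overlapped widely, and 2 late libraries exceeded the highest early one. The log2FC was 0.77 ± 0.49 (SE, 95% interval -0.29 to 1.84), with a BY-adjusted p of 1 in limma.

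CLEC4G, or LSECtin, is known from the sinusoidal endothelium of liver and lymph node and from some myeloid cells. It held 20.0, 62.3, 57.0, 4.73 and 3.22 normalized read counts in the early libraries, the last of these being 3 reads, and 9.94, 57.1, 23.2, 12.3 and 8.39 in the late ones. The log2FC was 0.01 ± 0.81 (SE), with a 95% interval from -1.75 to 1.77 that allows a change of more than 1 in either direction, and its sign changed with the processing. The summed sinusoidal and lymphatic endothelium markers ranged from 223 to 1470 in early and from 457 to 986 in late CCH, and STAB2, a defining gene of sinusoidal endothelium, was at 0 in 8 of 10 libraries and at 1 read in the others. In the RefSeq gene order CLEC4G and CD209 are neighbors. After removal of the stage means, Pearson-log r between them was 0.403 over the 10 libraries and 0.160 without early library 2, and for example early libraries 3 and 5 held like values of CD209 (454 and 395) but 57.0 and 3.22 of CLEC4G.

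All tested genes were searched, apart from the listed receptors and symbols that begin with LOC. Genes most like a receptor over the 10 libraries were ranked by Pearson-log r after removal of the stage means. For CD209 these were ABI3BP (r = 0.965), GGTA1P (0.959) and NFKBIZ (0.955). For MRC1 they included DOCK11 (0.937) and NAMPT (0.919), and for CLEC7A they were VSIG10 (0.935), COCH (0.933) and SAMD8 (0.908). For CLEC12A they were HMGN4 (0.950), TMEM236 (0.942) and SREK1 (0.938), for CLEC4G PSTK (0.980), ZNF311 (0.936) and BCAS2 (0.911), and for CLEC5A ZC3H15 (0.949), R3HDM1 (0.931) and TSC22D1 (0.929). These coefficients are the highest of many over few libraries and are given as a description.

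The adaptors and kinases through which these receptors signal were all measured (25 tested), and none was called with BY in limma. With BH, 2 were called, both higher in late CCH, namely HCST (DAP10, log2FC 2.40), the adaptor of the NK and T-cell receptor KLRK1, and RELB (1.16), an NF-κB subunit. The lowest log2FC was -1.02, for FCER1G, the adaptor of several activating lectins. The direct partners of the receptors are given for their roles, with values known. TYROBP, the partner of CLEC5A, had a mean of 3520 in early and 2003 in late CCH, and all late values lay below all early ones (log2FC -0.82, BY-adjusted p = 0.0805, limma). SYK had a mean of 425 in early and 773 in late CCH, and all late values lay above all early ones (log2FC 0.85, BY-adjusted p = 0.0621, limma). CARD9 (-0.25), PTPN6 (-0.46) and PTPN11 (-0.09) had log2FC values between -0.5 and 0. SYK is also used by B cells, and B-cell marker sums ranged from 51.5 to 238 in early and from 412 to 2298 in late CCH; the part of B cells in the SYK values was not tested.

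Among the genes that such signaling is known to induce, 10 were tested and 1 was called with BY, EGR2, a transcription factor of activated lymphocytes and myeloid cells. It rose from 59.6 to 344 normalized read counts (log2FC 2.46 ± 0.29, BY-adjusted p = 0.00812, limma). The call of EGR2 held in all 10 fits without 1 library. Of all tested genes, 2.17% were called with BY and 9.04% with BH. With BH, TNF was called as well (log2FC 1.19), and the lowest log2FC was -0.92 for IL10. The part of lymphocyte content in the EGR2 and TNF values was not tested. The median log2FC of these 10 genes was 0.88, and that of the adaptors and kinases was -0.02.

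Of 45 other genes with a C-type lectin domain or fold, 27 were tested, and 2 were called with BY in limma, both higher in late CCH. KLRK1 (NKG2D), an activating receptor of NK and CD8 T cells, rose from 45 to 363 normalized read counts (log2FC 3.30 ± 0.58, BY-adjusted p = 0.0436, limma). CD69, an early activation antigen of lymphocytes, rose from 36.4 to 140 (log2FC 1.86 ± 0.28, BY-adjusted p = 0.0231, limma). When 1 library was left out, CD69 was called in 5 of 10 fits (lost without early library 1 or 5 or late library 2, 4 or 5) and KLRK1 in 2 of 10 (without early library 3 or late library 3), with BY-adjusted p-values in limma up to 0.0855 and 0.147. With BH, 6 were called, all higher in late CCH, among them also CLEC2D, KLRD1 and SELE. Of the genes named here, KLRK1, KLRD1, CD69 and CLEC2D are known from lymphocytes, and SELE from activated endothelium. The median log2FC of the 27 genes was 0.49, and the lowest was -0.74 for KLRG1. Summed T-cell markers ranged from 64.7 to 2249 in early and from 4105 to 5909 in late CCH, with all 10 tested T-cell markers called higher with BH and 1 with BY (CD6). The part of lymphocyte content in these lectin values was not tested.

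**Figure D5:**
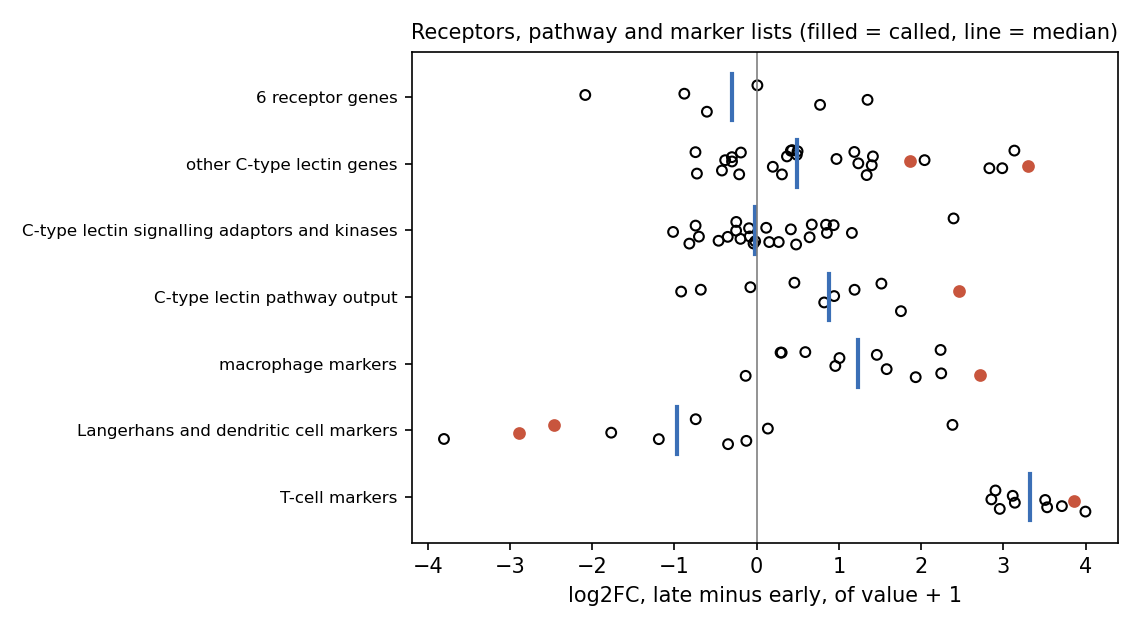
The log2FC (late minus early, of value + 1) of each tested gene of the receptors, 3 pathway lists and 3 marker lists, with filled points for genes called with BY and a line at the median of each list. The 6 receptors spread around 0 from -2.08 to 1.35, the T-cell markers all lie above 2, and the 2 filled C-type lectins are CD69 and KLRK1.

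Markers of the other cell types in the tissue were read in the same fit. Of 10 tested Langerhans and dendritic cell markers, 2 were called with BY, both lower in late CCH, FLT3, a growth factor receptor of dendritic cells (log2FC -2.89), and FCER1A, a chain of the IgE receptor (-2.47). With BH, 4 were called lower, the lowest being CD1A8 (-3.80), and 1 was called higher, CCR7 (2.38), a homing receptor of mature dendritic cells and of T cells, with all late values above all early ones. Their median log2FC was -0.97, and their sums were 1307 to 3456 in early and 1139 to 1691 in late CCH. Among the pan-myeloid markers CYBB, a subunit of the phagocyte oxidase, was called (log2FC 2.38), while their median was -0.31. When 1 library was left out, CYBB stayed called in all 10 fits, FLT3 in 3 (without early library 2 or 4 or late library 3), FCER1A in 1 (without early library 1) and CD6 in 5 (lost without early library 5 or late library 1, 2, 4 or 5). No gene of the markers of type 1 dendritic cells, B cells, blood endothelium, sinusoidal and lymphatic endothelium, keratinocytes, fibroblasts or mast cells was called with BY in limma, but BH calls occurred in 3 of these lists. With BH, 4 of 6 B-cell markers were called higher, 1 of 4 sinusoidal and lymphatic endothelium markers (CCL21, log2FC 2.21) was called higher, and of 6 type 1 dendritic cell markers IRF8 was called higher (1.27) and BATF3 lower (-1.06). Keratinocyte sums ranged from 794 to 15766 in early and from 617 to 7912 in late CCH, and fibroblast sums from 7615 to 60438 and from 10533 to 35601.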

How the data were processed

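RNA from FFPE CCH was sequenced with QuantSeq 3′ FWD, 375 ng of total RNA per library. The authors trimmed reads with cutadapt, aligned them with STAR to CanFam3.1 and counted them with featureCounts, recounting unassigned reads on genes extended by 2 kb and sharing multi-mapped reads evenly; versions are not given in the sources used here. The deposited values are a normalized signal, read counts that the authors divided by a size factor per library, and 100% of the values above 0 were whole reads after division by the value of 1 read (tolerance 1e-06). Of 21 columns of values, 11 matched no sample and were not used. Column names gave the stage only, so library numbers are names, and RNA quality could not be a covariate.

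Genes that reached 10 normalized read counts in 5 or more libraries were tested with limma 3.58.1 (R 4.3.3, mean-variance trend, pseudocount 1) over the whole table. Differences on the log2(value + 1) scale understate changes of low genes. edgeR 4.0.16 and DESeq2 1.42.0 were run on the recovered reads as alternatives, and the test was checked on simulated counts. There it called 41.2% of genes with a true log2FC of 1.5 in size and 82.1% of those with 3, and no unchanged gene. A gene that was not called may thus still have changed. Other alternatives changed the pseudocount, filter, scaling, adjustment, weights or libraries, and edgeR with BH was added after the data were seen. Receptors and lists were chosen with earlier results of these data known. Named from the lists were called genes (at most 6), the highest and lowest log2FC, and the 3 genes most like each receptor; a few of these are not reported here. Samples are different dogs. UU_Cfam_GSD_1.0 served only for gene order, with 15532 symbols matched.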

Additional observations from a re-analysis of the deposited data

Results flagged for a closer look

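Groups of 5 libraries were searched for a library far from the others, which chance gives for about 1 in 20 groups of normally distributed values. Read counts were searched without a log transform, and measures of the same gene overlap, so this rate is only a rough guide here. The 104 groups searched were 50 of the levels, shares, sums and relative levels of the receptors and 54 of the other tested C-type lectin genes. Of these groups 7 stood out, where that rate would give about 5.2. Of the receptors, CD209 in early library 2 held 1744 normalized read counts, against 454 in the next library, a gap of 0.766 of the range of the group. Of the other lectins, FCER2 (CD23, a low-affinity IgE receptor) held 2566 normalized read counts in early library 5 against 149.8 in the next library, the widest gap at 0.945 of the range. CLEC1B held 107 in early library 4 against 24.4, CLEC2B 255 in early library 3 against 163, and CLEC2D 508 in late library 1 against 363. PLA2R1 held 37.8 in late library 5 against 17.4, and KLRF1 35.7 in the same library against 13.3. The causes were not tested.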

How the results depend on the processing

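Of the receptors, CD209, MRC1, CLEC7A, CLEC12A and CLEC5A kept their sign in all alternatives that could be run for them, CD209 between 0.45 and 2.03 and CLEC7A between -0.82 and -0.41. CLEC4G turned negative with a pseudocount of 5 (-0.092), TMM scaling (-0.0035), edgeR (-0.39, also with BH) and DESeq2 (-0.41), and ranged from -0.51 to 0.46 when 1 library was left out. CLEC5A passed the threshold with BH (log2FC -2.08), DESeq2 (-2.07) and edgeR with BH (-2.05), so that the receptors called were 1 with each of these. With BY in limma, 0 were called in every fit without 1 library, whereas with BH CLEC5A was called in all 10 of these fits and MRC1 in 1.

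Over all tested genes, 269 calls became 1121 with BH, 177 with edgeR, 810 with DESeq2, 418 with library weights, 1009 with edgeR and BH, and 49 to 260 without 1 library, with 75 without early library 1, 49 without early library 5, and 87, 54, 66 and 113 without late libraries 1, 2, 4 and 5. Calls split into 131 higher and 138 lower, and into 169 and 95 when scaled by column totals. The 3 calls of the pathway lists became 10 (BH), 7 (DESeq2), 6 (weights), 7 (edgeR with BH) and 1 to 4 without 1 library, with 1 without early library 1 or 5 or late library 2, 4 or 5. The 5 of the marker lists became 8 (pseudocount 5), 27 (BH), 3 (edgeR), 18 (DESeq2), 8 (weights), 20 (edgeR with BH) and 1 to 8 without 1 library, with 8 without early library 2 and 1 without early library 5 or late library 1, 2, 4 or 5. A minimum mean of 50 left CLEC12A, CLEC4G and CLEC5A untested. No paired analysis was possible because library names carry no replicate numbers and the dogs differ. The causes were not tested. CLEC4G in early library 5 rested on 3 reads.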
